A study of Mus musculus with 12 samples.

Results

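The chondrogenic SOX factors and the cartilage matrix genes described here were 10 genes chosen by name: the transcription factor genes Sox5, Sox6 and Sox9, and the matrix genes Acan, Vcan, Hapln1, Comp, Matn2, Cilp and Chad. All 10 were found among the 56350 genes counted. Of these 10, 6 passed the filter on low counts (more than 10 counts in at least 3 libraries) and were tested together with all other genes that passed, 16484 in total. Acan, Hapln1, Chad and Sox6 did not pass the filter. RNAseq was performed on MPC2 cells, a conditionally immortalized mesenchymal progenitor line of mouse that is a single clone. MSCs were undifferentiated MPC2 cells kept at 33 °C, and osteocytes were the same line after 3 weeks at 37 °C in osteogenic medium with ascorbic acid and beta-glycerophosphate. Each cell type received vehicle (DMSO) or 50 µM FG-4592 (Roxadustat, an inhibitor of the HIF prolyl hydroxylases) for 48 hours, with 3 libraries in each of the 4 conditions. Differentiation, temperature and medium changed together and cannot be told apart. The labels do not say that the libraries of a condition came from separate cultures, so the p-values measure the spread between these libraries, which may be technical.

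SOX9 is the transcription factor that specifies chondrocytes, and the related SOXD proteins SOX5 and SOX6 act with it on the enhancers of cartilage genes such as Col2a1 and Acan. Cartilage matrix is built around type II collagen and aggrecan, the hyalectan that binds hyaluronan through link protein, while versican is the hyalectan of loose mesenchyme and of tissue that has not yet become cartilage. COMP, matrilins, CILP and chondroadherin are smaller matrix proteins that connect collagens, proteoglycans and cells. FG-4592 stabilizes HIF proteins, and Sox9 is among the genes studied as responsive to low oxygen in cartilage.

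Library totals were between 52829185 and 68108470 counts. Levels are given in CPM, the count of a gene scaled to the library size after TMM correction, as the mean ± SD of 3 libraries. A count of 0 allows up to 3 counts, or between 0.0447 and 0.0545 CPM, and such limits cover counting error only. Of 10 HIF target genes used to check the labels, 8 were called higher with FG-4592 in MSCs and 10 in osteocytes, beside 4.12% and 6.25% of all genes tested. Of 13 osteoblast and osteocyte markers, 10 were tested and 4 rose from vehicle-treated MSCs to vehicle-treated osteocytes, beside 9.83% of all genes tested. Sost, Mepe and Pdpn had no more than 3 counts in any library. Adipocyte markers rose as well in the comparison of vehicle-treated cells, 6 of 7 beside the same 9.83% of all genes, with a summed level of 674.6 to 680.7 CPM in MSCs and 3675 to 4624 CPM in osteocytes. The summed level of 10 vessel and blood markers stayed between 2.60 and 4.70 CPM over all conditions. Of these markers 4 were tested and 2, Tek and Pecam1, rose from MSCs to osteocytes in vehicle, beside 9.83% of all genes. They had no more than 126 and 33 counts in a library. With FG-4592 in MSCs 1 of the 4 rose, Tek, beside 4.12% of all genes. In a mixed population, fewer cells of a type and less RNA per cell cannot be told apart.

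Levels ran from genes with high counts in every library (Vcan, Matn2 and Sox9), through Comp and Sox5, to genes with almost no counts. Per length of exon, Vcan had the highest level in vehicle-treated MSCs, at 43.0 ± 0.896 CPM per kb, ahead of Matn2 at 35.6 ± 0.745 and Sox9 at 20.4 ± 1.05. Comp followed at 0.379 ± 0.0232 CPM per kb and Sox5 at 0.0862 ± 0.0289. In vehicle-treated osteocytes the order was different, with Matn2 at 27.8 ± 1.19 CPM per kb above Sox9 at 12.5 ± 1.15, Vcan at 10.5 ± 0.521 and Comp at 2.54 ± 0.245.

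**Figure D1:**
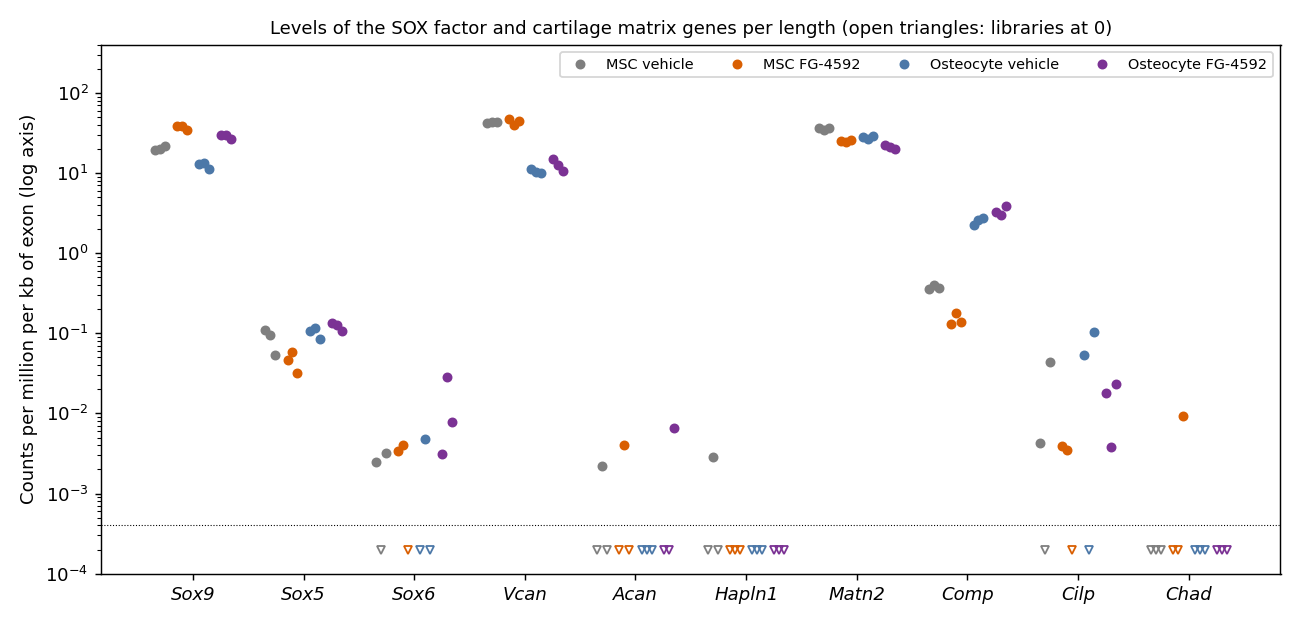
Level of each of the 10 genes per kb of exon on a log axis, 1 point for each library, coloured by condition, with open triangles under the dotted line for libraries at 0. Sox9, Vcan and Matn2 sit between 10.1 and 47.4 CPM per kb in every library, whereas Acan, Hapln1 and Chad are at 0 in 9 to 11 of 12 libraries.

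Acan, the gene of aggrecan, had 6 counts in all 12 libraries together and none in the vehicle-treated osteocytes. Hapln1, which encodes link protein, had a single count, in 1 vehicle-treated MSC library. Chad, the gene of the collagen-binding protein chondroadherin, also had a single count, in 1 FG-4592-treated MSC library. These 3 genes were not expressed above the limit of 3 counts in any library of any condition, so that no change could be measured at this depth.

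Sox6 was close to that limit. It had 0 to 3 counts in the vehicle-treated MSCs, 0 to 4 in the FG-4592-treated MSCs and 0 to 4 in the vehicle-treated osteocytes. In the FG-4592-treated osteocytes the 3 libraries had 3, 26 and 7 counts, and the library with 26 held 26 of the 52 counts of Sox6 in the series. The ranges of this condition and of the other 3 overlapped, and the gene was not tested.

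The cartilage hyalectans and link proteins lie in pairs in the mouse genome, and the pair of Vcan and Hapln1 held the highest and one of the lowest levels of the set in MSCs. On mm10, Hapln1 was counted over chr13:89539796-89611652 on the plus strand and Vcan over chr13:89655312-89742509 on the minus strand, with 43.7 kb between them. Acan (chr7:79053483-79115099) lies beside Hapln3, another link protein gene, which reached no more than 8 counts in a library. The RefSeq promoter table of GRCm38.p6, the same build, had windows of 300 bases for 7 of the 10 genes, all but Sox9, Comp and Matn2. The 250 bases before the RefSeq start are shown for the expressed Vcan and for the unexpressed Hapln1, Acan and Chad, from 5′ to 3′ on the gene's strand. Vcan is read from chr13:89742513-89742762 (minus), Hapln1 from chr13:89540386-89540635 (plus), Acan from chr7:79052976-79053225 (plus) and Chad from chr11:94564797-94565046 (plus). Capitals mark the HIF element core ACGTG or its reverse CACGT.
Vcan: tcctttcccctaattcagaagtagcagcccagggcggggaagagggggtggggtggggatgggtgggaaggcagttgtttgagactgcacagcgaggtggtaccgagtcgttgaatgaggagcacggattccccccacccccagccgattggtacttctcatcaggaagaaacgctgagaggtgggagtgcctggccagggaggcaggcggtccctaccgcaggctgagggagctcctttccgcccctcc
Hapln1: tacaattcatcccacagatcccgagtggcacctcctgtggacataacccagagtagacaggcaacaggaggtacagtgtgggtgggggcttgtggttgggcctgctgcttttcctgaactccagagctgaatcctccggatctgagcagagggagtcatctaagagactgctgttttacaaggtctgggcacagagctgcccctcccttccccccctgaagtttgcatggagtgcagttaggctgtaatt
Acan: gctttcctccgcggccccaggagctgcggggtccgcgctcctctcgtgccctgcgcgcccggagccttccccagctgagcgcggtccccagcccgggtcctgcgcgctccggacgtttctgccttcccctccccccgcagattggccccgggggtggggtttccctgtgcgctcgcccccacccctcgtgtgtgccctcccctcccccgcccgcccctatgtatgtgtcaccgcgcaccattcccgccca
Chad: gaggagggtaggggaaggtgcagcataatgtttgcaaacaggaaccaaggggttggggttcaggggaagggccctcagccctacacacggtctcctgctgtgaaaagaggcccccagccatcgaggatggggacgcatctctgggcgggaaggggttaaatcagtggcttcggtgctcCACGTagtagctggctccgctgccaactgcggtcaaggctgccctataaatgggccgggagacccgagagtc

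Within the full windows of 300 bases, the unexpressed Acan had the highest share of G and C among these 4 genes, 74%, with 31 CpG dinucleotides. The window of Vcan had 61% G and C and 12 CpG, that of Chad 61% and 13, and that of Hapln1 54.3% and 3, beside a median of 52.7% and 7 CpG over all 32851 windows. The HIF core was in the window of Chad and in 1 of 6 windows of Sox6, and in 19.6% of all windows. Neither Vcan nor Acan held it, and the windows of Sox5, Hapln1 and Cilp held none either. The SOX core ACAAT, read on both strands, was in 31% of all windows and, among these 4 genes, in that of Hapln1. These matches are letters in a window and were not tested as binding sites. RefSeq starts can differ from those of the counted genes. The window of Sox5 (chr6:143947057-143947356, minus strand) lies inside the counted gene, away from its 5′ end at 144781977. That of Hapln1 begins at 89540386, after the counted start at 89539796.

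Sox9 (chr11:112782224-112787760) was higher with FG-4592 in both cell types. In MSCs it was at 80.3, 83.4 and 88.9 CPM with vehicle and at 159.6, 158.0 and 144.4 CPM with FG-4592. In osteocytes the libraries were at 54.1, 54.8 and 46.2 CPM with vehicle and at 122.9, 124.3 and 110.7 CPM with FG-4592. No library of one treatment reached the range of the other in either cell type. Sox9 rose 2.31-fold in osteocytes, by 1.21 on the log2 scale (SE 0.0706, FDR = 8.16e-10, edgeR quasi-likelihood test), and was called. In MSCs it was 1.83-fold higher, 0.87 on the log2 scale (SE 0.0695, FDR = 4.91e-08 in the same edgeR fit), which is under the fold cutoff of 1 on the log2 scale.

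The response of Sox9 was larger in osteocytes than in MSCs by 0.34 on the log2 scale (95% interval 0.13 to 0.54), with an FDR of 0.0201 for the interaction in edgeR and a size below the fold cutoff. Without vehicle-treated MSC replicate 3 this difference was 0.24 (FDR = 0.113). The level was highest in MSCs with FG-4592 (154.0 ± 8.40 CPM), then in osteocytes with FG-4592 (119.3 ± 7.46), MSCs with vehicle (84.2 ± 4.34) and osteocytes with vehicle (51.7 ± 4.76). Neighbours in that order did not overlap. With differentiation Sox9 was lower, by 0.70 on the log2 scale in vehicle (SE 0.0703, FDR = 4.19e-07) and by 0.37 in FG-4592 (SE 0.0689, FDR = 0.000254), and neither passed the fold cutoff.

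**Figure D2:**
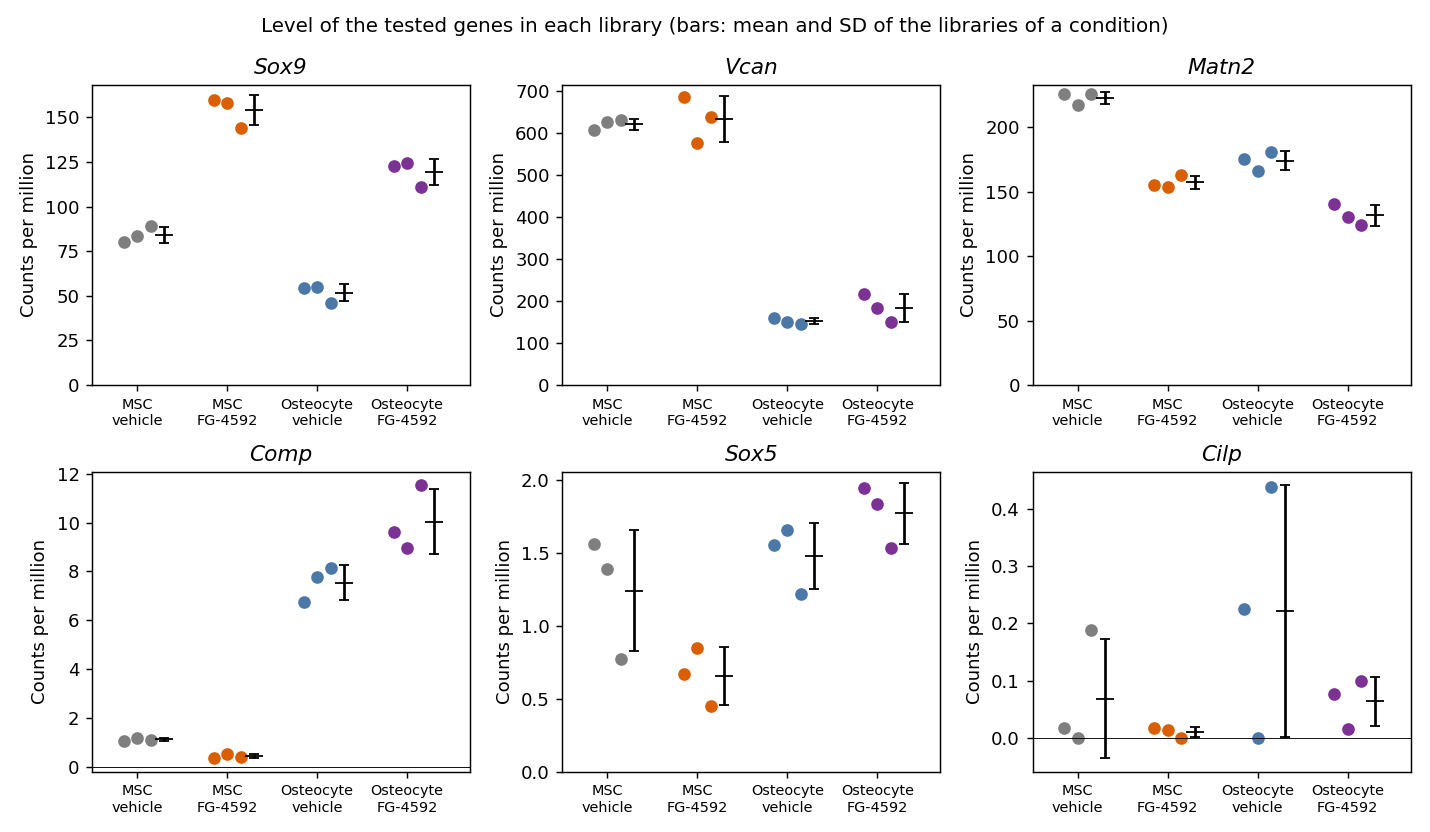
CPM of the 6 tested genes in each of the 12 libraries (points, coloured by condition), with the mean and SD of each condition as bars and a linear axis for each gene. Sox9 is higher in every FG-4592 library than in the vehicle libraries of the same cells. Vcan and Comp are called between MSCs and osteocytes in both treatments, and Sox5 and Cilp overlap between most conditions.

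Sox5 (chr6:143828425-144781977), which shares the SOXD role with Sox6, was low, with 29 to 126 counts per library. In MSCs it was at 1.56, 1.39 and 0.770 CPM with vehicle and at 0.671, 0.849 and 0.453 CPM with FG-4592. The third vehicle library lay within the range of the FG-4592 libraries. The log2 fold change was -0.91 (95% interval -1.58 to -0.24, FDR = 0.0323 in edgeR), under the fold cutoff. Leaving out 1 library moved it across the cutoffs in both directions: it was -0.68 (FDR = 0.155) without vehicle-treated MSC replicate 1, -1.13 (FDR = 0.00970) without vehicle-treated MSC replicate 3 and -1.14 (FDR = 0.0233) without FG-4592-treated MSC replicate 2, and the last 2 pass both cutoffs.

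In osteocytes Sox5 was at 1.55, 1.65 and 1.22 CPM with vehicle and at 1.94, 1.83 and 1.54 CPM with FG-4592. The groups overlapped, and the log2 fold change of 0.26 had an FDR of 0.519 in edgeR. Among FG-4592-treated cells Sox5 rose from MSCs to osteocytes by 1.42 on the log2 scale (SE 0.313, FDR = 0.00103), with no overlap. In vehicle the same comparison gave 0.25 (95% interval -0.39 to 0.90, FDR = 0.516). The difference between the FG-4592 responses of osteocytes and MSCs was 1.17 (95% interval 0.25 to 2.09, FDR = 0.0619 in edgeR), not called, and it passed both cutoffs in DESeq2. Exons of Sox5 share 1330 bases with the antisense gene Sox5os1, which had 0 counts in every library.

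Vcan (chr13:89655312-89742509) was the matrix gene with the most counts, 293772 over the 12 libraries. With vehicle it was at 606.4, 626.9 and 630.4 CPM in MSCs and at 160.8, 150.0 and 146.2 CPM in osteocytes. With FG-4592 it was at 685.0, 575.4 and 637.5 CPM in MSCs and at 216.0, 184.3 and 151.0 CPM in osteocytes. The separation was by cell type, and the vehicle and FG-4592 libraries overlapped in each cell type.

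Vcan fell with differentiation in both treatments. It was 4.08-fold lower in osteocytes than in MSCs with vehicle, a log2 fold change of -2.03 (SE 0.0982, FDR = 5.60e-11 in edgeR). In FG-4592 it was 3.44-fold lower, -1.78 on the log2 scale (SE 0.0973, FDR = 1.92e-10 in edgeR). FG-4592 gave 0.026 on the log2 scale in MSCs (95% interval -0.17 to 0.23, FDR = 0.863). It gave 0.27 in osteocytes (95% interval 0.069 to 0.47, FDR = 0.0297), below the fold cutoff, and without FG-4592-treated osteocyte replicate 1 it gave 0.14 (FDR = 0.198).

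Matn2 (chr15:34306677-34436273), the gene of an oligomeric adaptor protein of many connective tissues, varied least of the 6 tested genes over the 4 conditions. In MSCs it was at 225.8, 217.7 and 225.7 CPM with vehicle and at 155.2, 153.8 and 163.1 CPM with FG-4592. In osteocytes it was at 175.6, 166.2 and 181.0 CPM with vehicle and at 140.6, 130.7 and 124.1 CPM with FG-4592. None of the 4 conditions overlapped with its neighbour, and Matn2 was lower with FG-4592 in both cell types, where Sox9 was higher. The log2 fold changes were -0.50 in MSCs (SE 0.0526, FDR = 1.14e-06) and -0.40 in osteocytes (SE 0.0527, FDR = 1.02e-05), both under the fold cutoff in edgeR. From MSCs to osteocytes the values were -0.36 with vehicle (FDR = 3.04e-05) and -0.26 with FG-4592 (FDR = 0.000596). The responses in both cell types differed by 0.10 on the log2 scale (95% interval -0.058 to 0.26, FDR = 0.370). Matn2 shares 70 exonic bases with 9430069I07Rik, which had no more than 8 counts in a library.

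Comp (chr8:70373558-70382066), also known as thrombospondin-5, encodes a pentameric protein that binds collagens in cartilage and tendon. In MSCs it was at 1.07, 1.20 and 1.10 CPM with vehicle and at 0.386, 0.536 and 0.406 CPM with FG-4592, from 59 to 72 and 23 to 36 counts. In osteocytes it was at 6.73, 7.76 and 8.13 CPM with vehicle and at 9.62, 8.94 and 11.5 CPM with FG-4592, from 432 to 698 counts. The 4 conditions did not overlap. MSCs with FG-4592 were the lowest, at 0.443 ± 0.0816 CPM, followed by MSCs with vehicle (1.12 ± 0.0688), osteocytes with vehicle (7.54 ± 0.726) and osteocytes with FG-4592 (10.0 ± 1.34).

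Comp fell 2.52-fold in MSCs given FG-4592, -1.34 on the log2 scale (SE 0.196, FDR = 4.44e-05 in edgeR). In osteocytes it was 1.33-fold higher with FG-4592, 0.41 on the log2 scale (95% interval 0.11 to 0.71, FDR = 0.0248), below the fold cutoff. Without FG-4592-treated osteocyte replicate 3 that value was 0.30 (FDR = 0.154). The responses of the 2 cell types differed by 1.75 on the log2 scale (SE 0.241, 95% interval 1.24 to 2.26, FDR = 6.58e-05 for the interaction in edgeR), past both cutoffs.

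With differentiation Comp rose 6.69-fold in vehicle, by 2.74 on the log2 scale (SE 0.161, FDR = 6.37e-10 in edgeR). In FG-4592 it rose 22.5-fold, by 4.49 (SE 0.180, FDR = 3.72e-12 in edgeR). Tendon cells also make COMP. Of 7 tendon markers 5 were tested and 2, Tnc and Fmod, rose from MSCs to osteocytes in vehicle, beside 9.83% of all genes. Scx was not called, at -0.29 on the log2 scale (FDR = 0.691 in edgeR), and Mkx and Egr1, at 0.61 and 0.41, were under the fold cutoff. Fmod was at 1.00 ± 0.491 CPM in MSCs and 5.01 ± 6.16 CPM in osteocytes, where 1 library reached 12.1 CPM and the lowest, at 1.11, lay within the MSC range of 0.551 to 1.52 CPM. The summed level of the tendon markers was 187.2 to 199.4 CPM in vehicle-treated MSCs and 2034 to 2282 CPM in vehicle-treated osteocytes, mostly from Tnc at 2084 ± 144.2 CPM. The tendon genes Tnmd and Kera had no more than 8 and 1 counts in a library. Whether tendon cells were present was not tested. The part of such cells, or of cells with adipocyte markers, in the levels of Comp and Vcan was not tested either.

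Cilp (chr9:65265180-65280605), the gene of the cartilage intermediate layer protein, passed the filter through 3 libraries only. It had 1, 0 and 12 counts in vehicle-treated MSCs and 1, 1 and 0 in FG-4592-treated MSCs. It had 15, 0 and 27 counts in vehicle-treated osteocytes and 5, 1 and 6 in FG-4592-treated osteocytes. Libraries of 1 condition thus ranged from 0 to 27 counts, all conditions overlapped, and no comparison was called, with FDRs of 0.224 to 0.807 in edgeR.

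**Figure D3:**
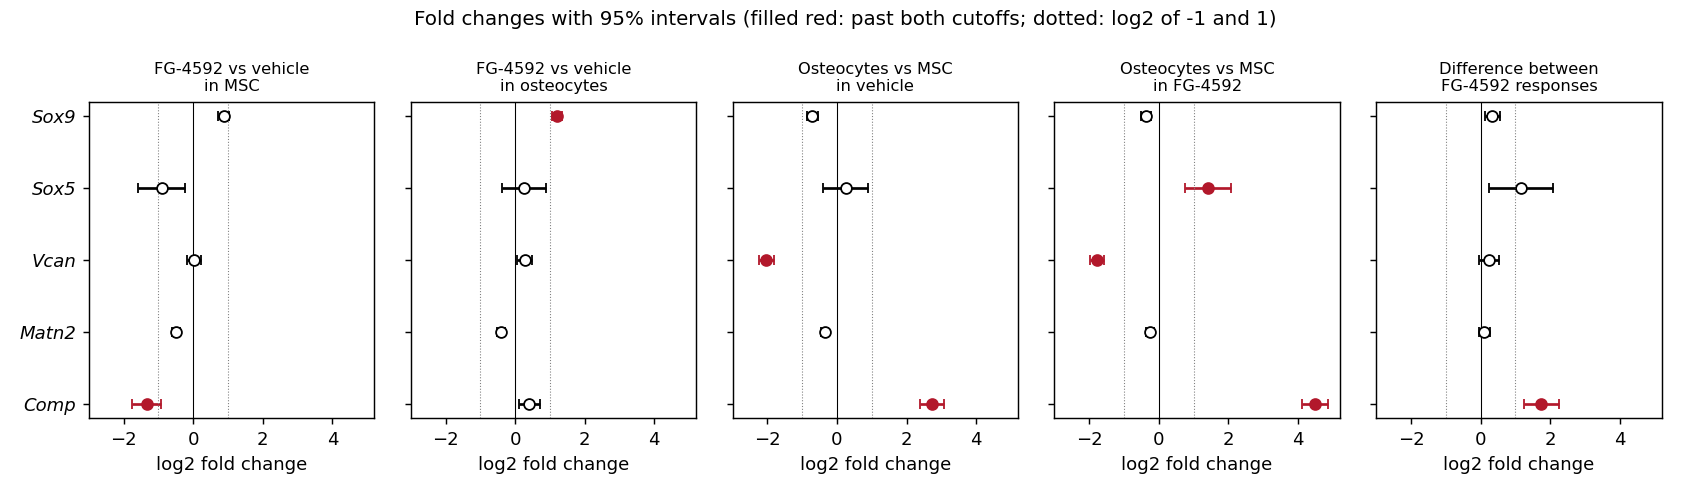
Log2 fold changes of the 5 tested genes other than Cilp, with 95% intervals, in 5 panels, 1 for each comparison; red points passed both cutoffs. Sox9 is called with FG-4592 in osteocytes, Vcan and Comp with differentiation in both treatments, Sox5 with differentiation in FG-4592, and Comp in MSCs and in the response difference.

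The calls were set against those of all genes tested. With FG-4592 in MSCs, 1 of the 6 tested genes was called, Comp, which fell, and 5.17% of all genes tested were called down and 4.12% up. With FG-4592 in osteocytes, 1 of 6 was called, Sox9, which rose, beside 6.25% called up and 4.26% down. From MSCs to osteocytes in vehicle, Comp was called up and Vcan down, beside 9.83% up and 6.08% down. In FG-4592, Comp and Sox5 were called up and Vcan down, beside 12.6% up and 5.64% down. The response difference was called for Comp, upward, beside 3.94% of genes upward and 1.07% downward. With 6 genes tested, each share rests on 1 or 2 genes, and nothing particular to the set was read from it.

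Other SOX genes of the D, E and C groups were mostly at low counts. Of 9 such genes, the members included, 4 were tested: Sox5, Sox9, Sox13 and Sox4. Sox13, the other SOXD gene, fell in MSCs by 1.83 on the log2 scale, from 0.696 ± 0.264 to 0.194 ± 0.101 CPM. Sox4, a SOXC gene of progenitor cells, fell with FG-4592 in osteocytes by 2.03, from 129.2 ± 13.4 to 31.7 ± 2.25 CPM, while Sox9 rose in the same libraries. Sox8 and Sox10, which share the SOXE role with Sox9, had no more than 10 and 6 counts in a library.

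Cartilage collagens, the structural partners of these matrix genes, moved mainly with differentiation. Of 8 genes 7 were tested, and in vehicle 4 rose and 1 fell from MSCs to osteocytes, beside 9.83% and 6.08% of all genes, with a median log2 fold change of 1.49 beside -0.0064 over all genes tested. Col11a1 rose from 3.76 ± 0.890 to 359.9 ± 38.2 CPM, by 6.59 on the log2 scale. Col2a1, the gene of type II collagen, rose from 0.771 ± 0.313 to 62.7 ± 9.73 CPM, by 6.32.

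With FG-4592 in osteocytes, Col2a1 was at 242.5, 306.4 and 332.7 CPM beside 52.6, 72.0 and 63.6 CPM in vehicle, without overlap. It rose by 2.23 on the log2 scale, and Col11a1 fell by 1.08 in the same comparison. In MSCs Col2a1 was at 0.771 CPM with vehicle and 1.31 ± 0.110 CPM with FG-4592, and Col27a1, the 1 collagen of this list that was called, fell by 2.61. FG-4592-treated osteocytes thus had Sox9 at 119.3 CPM and Col2a1 at 293.9 ± 46.4 CPM, and Acan at 0 in 2 libraries and at 3 counts in the third. In the same comparison 5 of the 10 tested osteoblast and osteocyte markers fell and 1 rose, beside 4.26% and 6.25% of all genes, with a median log2 fold change of -1.05 beside 0.0015 over all genes. Phex, a gene of phosphate handling in osteocytes, fell by 4.35 on the log2 scale and Dmp1, a mineralization gene, fell by 2.44. The 1 that rose was Fgf23, by 5.81, from 0.0251 ± 0.0435 to 1.61 ± 0.316 CPM. The summed level of this list was 2919 to 3403 CPM with vehicle and 2904 to 3820 CPM with FG-4592. Most of it was Col1a1, at 2749 ± 254.2 CPM with vehicle and 2971 ± 498.2 CPM with FG-4592, which was not called (FDR = 0.363 in edgeR). The part of this list in the levels of Sox9 and Col2a1 was not tested. In MSCs, where Sox9 was also higher with FG-4592, 4 of these 10 markers fell, beside 5.17% of all genes.

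Of 8 hyalectans and link proteins, the members included, 3 were tested, Vcan, Bcan and Hapln4, and of the rest outside the set Ncan, Hapln2 and Hapln3 had no more than 4, 11 and 8 counts in a library. Hapln4, a link protein, had 17 to 128 counts per library. Hapln4 fell with Vcan in the comparison of vehicle-treated osteocytes with MSCs, by 1.36 on the log2 scale, and rose with FG-4592 in osteocytes by 1.10, from 0.406 ± 0.157 to 0.879 ± 0.154 CPM. Of 7 proteases that cleave hyalectans 5 were tested, and 4 of them rose with differentiation in vehicle, where Vcan fell and 9.83% of all genes were called up. Adamts4, the other one tested, had a log2 fold change of 0.058 (FDR = 0.774 in edgeR). On the log2 scale the rises were 2.36 for Adamts9 and 1.70 for Adamts5, one of the main aggrecanases, which went from 117 to 380 CPM. Adamts15 went from 0.00557 CPM, under the limit of 3 counts, to 0.359 CPM.

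Matrilins, thrombospondins and CILPs, the families of Matn2, Comp and Cilp, gave calls with FG-4592 in both cell types. Of 11 genes 9 were tested. In MSCs 3 fell, beside 5.17% of all genes: Matn3 by 2.75 on the log2 scale, Thbs3 by 1.80 and Comp. In osteocytes 3 fell and 2 rose, beside 4.26% and 6.25% of all genes. Matn4 fell by 3.71, from 2.69 ± 0.181 to 0.205 ± 0.178 CPM, and Matn3 by 3.48, from 0.740 ± 0.387 to 0.0652 ± 0.0593 CPM. Cilp2 rose by 2.04, from 0.597 ± 0.256 to 2.47 ± 1.25 CPM. Thbs1, which encodes a matricellular protein, rose by 2.03 in osteocytes and was at 6605 ± 343.1 CPM there with FG-4592. Matn1, the matrilin of mature cartilage, had no more than 6 counts in a library.

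Genes for making the chondroitin sulphate chains of hyalectans, the enzymes and 2 transporters (Slc26a2 and Slc35d1), all passed the filter, 25 of 25, and most were not called. With FG-4592, 1 of 25 rose and 1 fell in MSCs, beside 4.12% and 5.17% of all genes, and 2 rose and 1 fell in osteocytes, beside 6.25% and 4.26%. These shares were close to the background. Ugdh, which makes the UDP-glucuronate precursor, rose by 1.52 on the log2 scale in MSCs and by 1.93 in osteocytes, from 123 to 470 CPM. With differentiation in vehicle 4 rose and 2 fell, beside 9.83% and 6.08% of all genes, and Csgalnact1, an initiating transferase, fell by 3.35. Of 9 hyaluronan genes, all tested, 2 rose and 1 fell with FG-4592 in MSCs, beside 4.12% and 5.17% of all genes, and 1 fell in osteocytes, Tnfaip6, by 1.49, beside 4.26%.

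Of 20 other chondrocyte markers found, 10 were tested. With FG-4592 in MSCs 4 fell, among them Cytl1 and Otor, beside 5.17% of all genes, and in osteocytes 1 rose, Prg4, which encodes the lubricant lubricin, by 2.13, and 2 fell, beside 6.25% and 4.26% of all genes. With differentiation 5 rose in vehicle and 4 in FG-4592, beside 9.83% and 12.6% of all genes, and in vehicle Cytl1 rose by 3.25, Otor by 2.21 and Fgfr3 by 2.14. Of 19 genes that define chondrocytes, 10 passed the filter, and Ucma had 0 counts in every library. Scrg1 and Snorc had no more than 2 and 5 counts. Cells labelled osteocytes thus had Sox9, Col2a1 and Col11a1 transcripts with hardly any from Acan, Hapln1, Chad or Ucma.

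**Figure D4:**
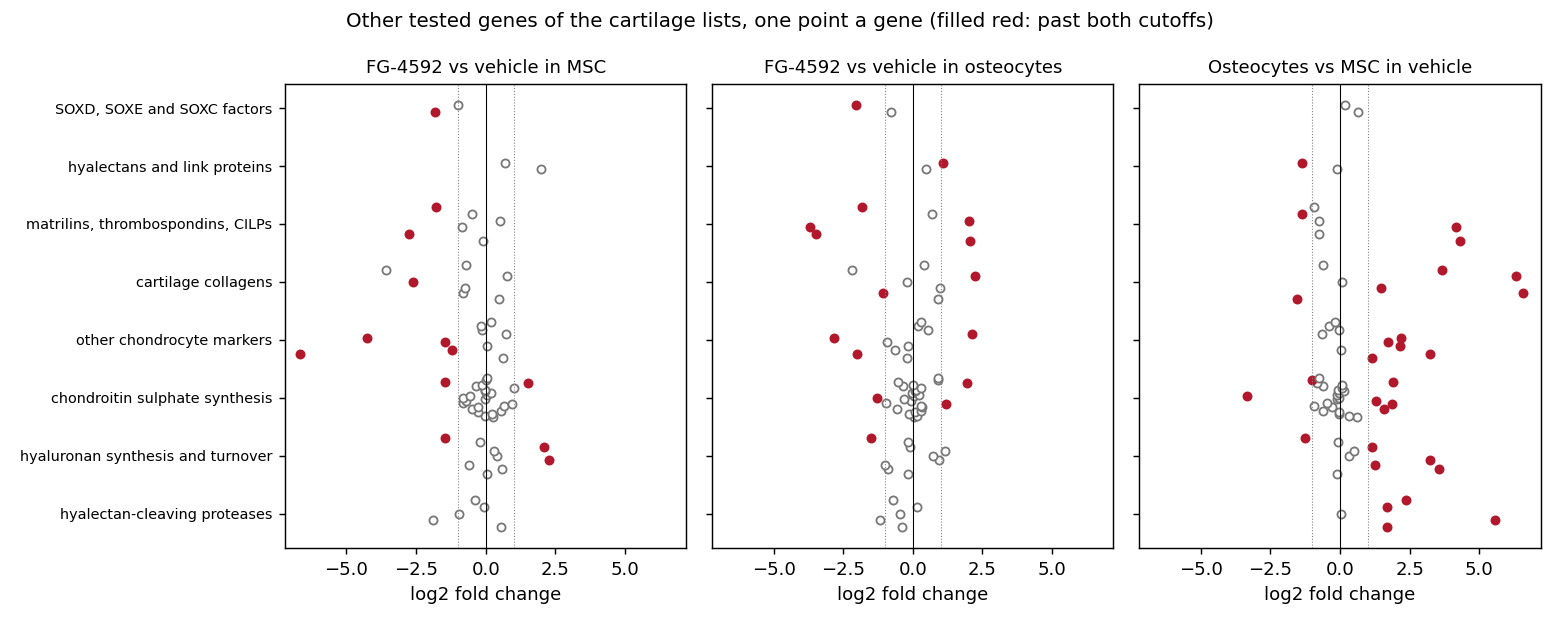
Log2 fold changes of the tested genes of 8 cartilage lists other than the members, 1 point for each gene, in 3 comparisons; filled red points passed both cutoffs. With differentiation in vehicle the collagens reach 6.59 and 4 of 5 tested proteases rise, whereas most of the 25 chondroitin sulphate genes stay between the dotted lines.

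For each gene with a condition mean of at least 100 counts, the gene outside the set with the most similar profile was found by the root mean square difference of centred log2 CPM over the 12 libraries. For Matn2 it was Col6a2, a chain of type VI collagen, at 0.0594. For Sox9 it was Tmem63a at 0.110, which was at 95.7, 183.5, 65.0 and 151.7 CPM in vehicle- and FG-4592-treated MSCs and in vehicle- and FG-4592-treated osteocytes. For Vcan it was Wnt10b, a WNT ligand, at 0.175. Likeness was looser for Sox5, with Rbm47 at 0.256, and for Comp, with Aoc3 at 0.283. Aoc3, an amine oxidase gene known from adipocytes, went from 49.7 to 429.7 CPM with differentiation in vehicle.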

How the data were processed

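RNAseq libraries of MPC2 cells were assigned to 4 conditions from their labels. The authors deposited raw counts per gene, without normalization. Per the labels and the study's methods, reads were aligned to mm10 (STAR 2.7.2a) and counted over Gencode M22 genes with featureCounts of Subread 1.6.2; reads under a mapping quality of 10 were dropped, with pairs counted for each gene they overlap and no strand option, so antisense and overlapping genes can take the same reads. A blastn 2.17.0 search used transcripts of a Gencode release other than the counted M22. For the 10 genes it found stretches of at least 100 bases at 98% identity in another gene only between Sox5 and Sox5os1.

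After the filter (above 10 counts in 3 or more libraries), edgeR 4.0.16 in R 4.3.3 fitted all conditions in 1 quasi-likelihood model with TMM factors (0.947 to 1.06), with the Benjamini-Hochberg FDR taken over every gene tested. Calls needed an FDR under 0.05 and a log2 fold change beyond 1 in either direction. Library totals of 52829185 to 68108470 counts set the detection limits. An exact permutation test of 3 against 3 libraries cannot go below p = 0.1 and was not used. The scripts were tested on simulated data.

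The 10 genes and the gene lists were chosen with earlier results of these data known. The genes named were all 10 members, up to 3 genes of each list with the largest change among those called, defining markers at or near 0, and the most similar profile of each expressed member. Col2a1 in MSCs, Bcan, Slc26a2, Slc35d1, Sox8, Sox10, Matn1, Thbs1, Adamts4, Adamts5, Ncan, Hapln2, Sox5os1, 9430069I07Rik, Hapln3, Col1a1, Scx, Mkx and Egr1 were named also for their position, role or values. The alternatives were RLE factors, library size alone, DESeq2 1.42.0, no filter, edgeR's filterByExpr, only the 6 libraries compared, a replicate block, leaving out genes that share exonic bases, and leaving out each library.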

Additional observations from a re-analysis of the deposited data

Results flagged for a closer look

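Both genes below were singled out because their response to FG-4592 differed between osteocytes and MSCs by the interaction test in edgeR at an FDR under 0.05. For Sox9 the difference was 0.34 on the log2 scale (FDR = 0.0201), and over the alternatives it was between 0.24 and 0.39 with FDRs from 0.000864 to 0.113. All 3 FG-4592 libraries were above the vehicle libraries in each cell type. For Comp the difference was 1.75 (FDR = 6.58e-05), and over the alternatives it was between 1.62 and 1.91 with FDRs from 2.17e-08 to 0.000384. In MSCs the 3 FG-4592 libraries were below those of vehicle, and in osteocytes they were above. Comp had 23 to 72 counts per library in MSCs.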

How the results depend on the processing

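Across the alternatives, all 158 recomputed values of the called member results kept their direction and call. Of 411 recomputed values of results not called, 403 stayed so in the same direction, 6 passed both cutoffs and 2 changed sign. The 6 were all of Sox5. Its response difference was called with DESeq2 (1.15, FDR = 0.0418) and with the replicate block (1.17, FDR = 0.0370), and without vehicle-treated MSC replicate 3 (1.37) or FG-4592-treated MSC replicate 2 (1.40); the members called in that comparison were then 2. Its fold change in MSCs passed without the same libraries (-1.13 and -1.14), so that leaving out 1 library gave 1 to 2 members called with FG-4592 in MSCs and 1 to 2 in the response difference. The 2 sign changes were of Vcan with FG-4592 in MSCs, with library size alone (-0.060) and without FG-4592-treated MSC replicate 1 (-0.035); leaving out each library gave -0.035 to 0.090. Of 40 levels, 2 moved by more than 1 SD with library size alone. Replicate numbers did not pair the libraries (18 same-number pairs, r from -0.135 to 0.0543), so the block only shares a number; it changed no other count of members called. Counts of all genes called stayed within 1.5 times in every alternative. Acan, Hapln1, Chad and Sox6 had too few counts for a test at this depth, and the counts of Cilp varied from 0 to 27 between libraries of 1 condition.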
